A study of Mus musculus with 244 samples.

Results

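The genes described here are 7 genes that are used as markers of the ovarian surface epithelium and of simple epithelial keratins. They are the simple keratins Krt8, Krt18 and Krt19, the uroplakin Upk3b, the retinaldehyde dehydrogenase Aldh1a2, Aard and the LIM homeobox gene Lhx9, and they were taken by name, 7 of 25122 genes of the count table. Levels were measured in single cells of CD-1 mouse ovaries at postnatal day 6, when oocytes and somatic cells (pre-granulosa or granulosa cells) had been dissociated by enzymes from follicles staged by eye and sequenced by SMART-Seq2, 1 library per cell. The 59 oocytes came from primordial (13), transitioning (19), primary (20) and secondary (7) follicles, and the 185 somatic cells from the same stages (40, 47, 56 and 42). The ovaries were pooled and the labels tie no cell to an animal, so each group of cells is 1 sample and no test between groups was possible. Intervals below cover counting error only. Those of levels and ratios treat reads as independent and leave out the spread between cells. SMART-Seq2 reads carry no molecular identifiers, so copies of 1 molecule made by PCR were counted separately.

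The ovarian surface epithelium is a single layer of cells that covers the ovary, carries simple keratins and mesothelial genes, and shares an origin with the pre-granulosa cells that enclose oocytes. Krt8 (type II) pairs with Krt18 or Krt19 (type I) to build the intermediate filaments of simple epithelia, and a keratin of one type is unstable without a partner of the other. Upk3b is a mesothelial membrane protein, ALDH1A2 makes retinoic acid from retinaldehyde, LHX9 is a transcription factor needed to form the gonad, and Aard encodes an alanine and arginine rich protein whose function is little known.

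Krt8 and Krt18 are neighbours, and 3 upstream sequences are shown because these genes carried the most counts of those with a promoter entry. In GRCm38, Krt8 (ENSMUSG00000049382.10) lies on the minus strand of chromosome 15 from 101996698 to 102004482 and Krt18 (ENSMUSG00000023043.7) on the plus strand from 102028180 to 102032027, 23.7 kb apart. Aldh1a2 (ENSMUSG00000013584.5) lies on chromosome 9 from 71215789 to 71296243, plus strand. RefSeq's promoter table (GRCm38.p6) held 5 of the 7 genes, with none for Krt19 and Aard. The runs below end where the annotated gene begins and read 5′ to 3′ on the gene's strand, at chr15:102004483-102004592 for Krt8, chr15:102027966-102028179 for Krt18 and chr9:71215539-71215788 for Aldh1a2. Capitals mark AGATAA, the core bound by GATA factors, and AGGTCA, the half-site of nuclear receptors, both searched on both strands.
Krt8: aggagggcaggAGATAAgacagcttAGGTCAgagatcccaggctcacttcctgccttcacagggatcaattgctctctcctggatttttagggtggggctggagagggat
Krt18: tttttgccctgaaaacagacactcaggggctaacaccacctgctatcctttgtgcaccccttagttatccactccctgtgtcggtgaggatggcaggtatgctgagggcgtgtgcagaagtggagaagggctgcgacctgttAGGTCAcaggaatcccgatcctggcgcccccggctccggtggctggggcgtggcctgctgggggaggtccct
Aldh1a2: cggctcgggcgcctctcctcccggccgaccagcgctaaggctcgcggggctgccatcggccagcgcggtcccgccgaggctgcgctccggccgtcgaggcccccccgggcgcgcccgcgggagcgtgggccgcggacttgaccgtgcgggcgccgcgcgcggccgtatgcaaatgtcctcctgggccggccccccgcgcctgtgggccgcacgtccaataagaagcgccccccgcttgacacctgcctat
In the 250 bases before the RefSeq start, Krt8 held AGATAA 239 bases and AGGTCA 225 bases upstream, Krt18 held AGGTCA 108 bases upstream, and Upk3b held AGGTCA 155 bases upstream. Aldh1a2 and Lhx9 held neither. Of 32851 promoters of this length, 9.99% held AGATAA and 14% held AGGTCA. The GC content of the Aldh1a2 window was 77.6%, against a median of 52.4% over all promoters. A match of letters is a description of the sequence and not a sign of binding.

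The metadata give each cell 1 of 6 plate numbers, called library plates or plates here, and the deposited table lists a gene only on some plates. What a plate number stands for is not stated. A second plate code differed between most oocytes and the somatic cells on plates 1, 2 and 4. Levels are CPM, counts-per-million of the counts in the 13266 genes listed on every plate. These genes held a median of 30.5% to 56.4% of the somatic counts and 24.1% to 74.8% of the oocyte counts of a plate, so a CPM here is larger than a CPM over all genes. Total counts ran from 5150 to 409310 per somatic cell and from 5440 to 801258 per oocyte. Over the 13266 genes the median was 29205 counts in somatic cells and 46686 in oocytes, at which 1 count equals 34.2 and 21.4 CPM. Krt8, Krt18, Krt19, Upk3b, Aldh1a2 and Aard were listed on all 6 plates, and Lhx9 was listed on plate 3 alone, which held 22 transitioning somatic cells and no oocyte. Aard, Aldh1a2, Krt8, Krt19 and Upk3b belonged to the somatic score by which the authors removed oocytes, so the oocyte levels of these 5 genes are limited by that selection.

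The somatic level of the 7 genes was carried by a minority of cells. Of the 185 somatic cells, Krt8 reads were present in 77, Aldh1a2 reads in 45, Aard reads in 38, Krt18 reads in 26, Krt19 reads in 5 and Upk3b reads in 3, and Lhx9 reads were present in 4 of 22. At least 1 of the 6 genes listed everywhere had reads in 120 somatic cells (64.9%). Reads of exactly 1 were present in 65 cells, of 2 in 40, of 3 in 11 and of 4 in 4, and no cell had reads of 5 or more. In oocytes, whose median depth was greater, at least 1 of the 6 had reads in 48 of 59 cells (81.4%).

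**Figure D1:**
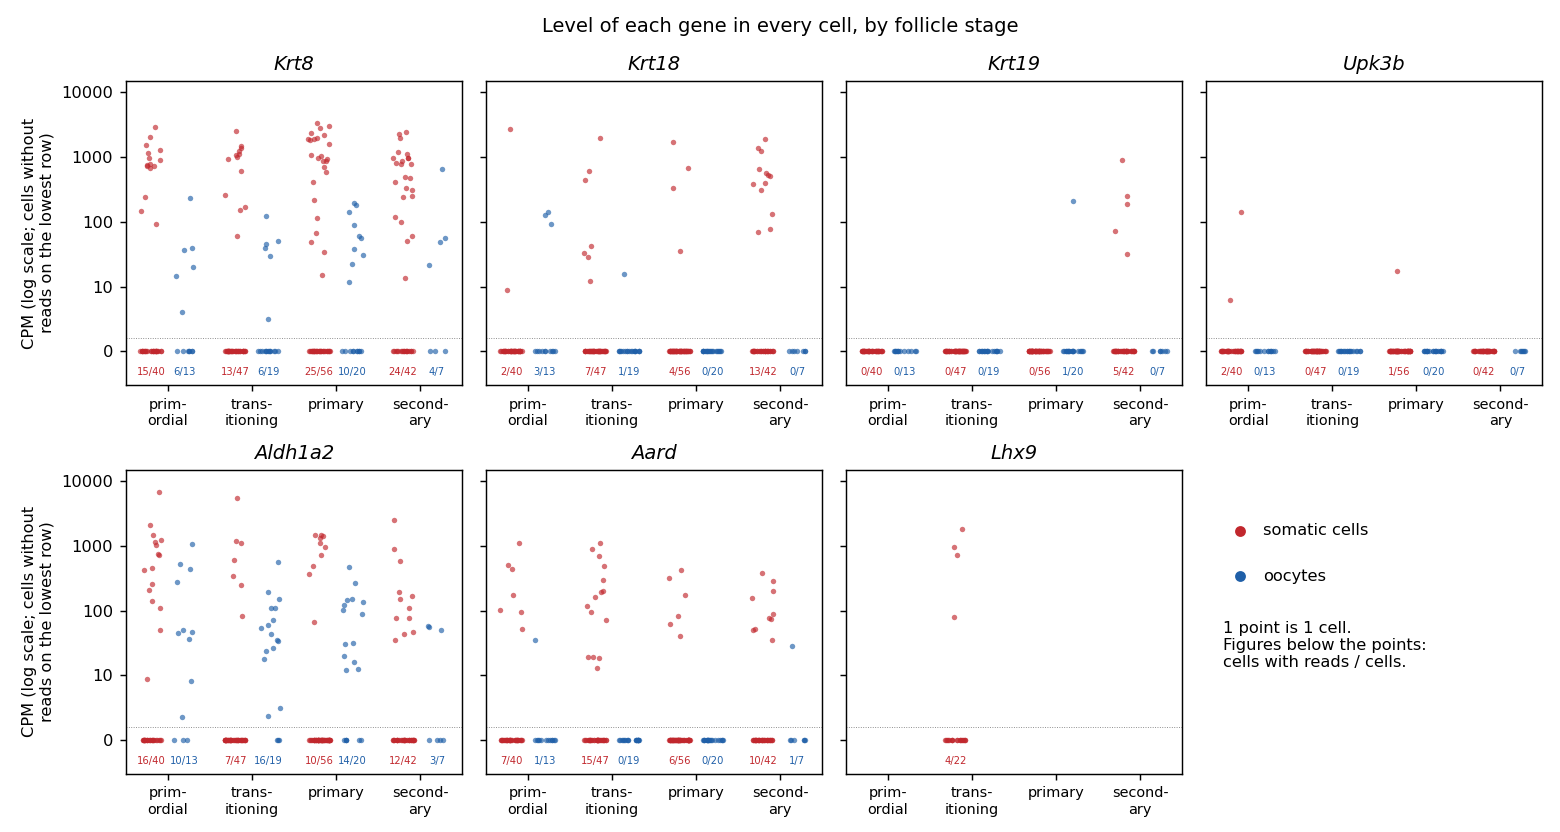
Each point is 1 cell, with its level in CPM on a log axis by follicle stage. Red points are somatic cells and blue points are oocytes, cells without reads stand on the lowest row, and the numbers give cells with reads of all cells. In every somatic stage most cells stand on the row of 0 except for Krt8 in secondary follicles, where 24 of 42 cells had reads.

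At least 50% of the summed CPM of a gene over the somatic cells was held by 17 cells for Krt8 (9.19% of cells), 7 for Aldh1a2 (3.78%), 6 for Aard (3.24%), 5 for Krt18 (2.7%) and by 1 cell each for Krt19, Upk3b and Lhx9. All 7 genes therefore stood at or below 10% of cells, which was set as few. That share is close to the background in these sparse libraries, since 74.2% of 12446 genes with at least 5 CPM met the same limit. Krt19 and Upk3b were below 5 CPM and are outside that set. Among genes of 50 to 200 CPM, the range of Aldh1a2, Aard and Krt18, 92.5% met it, with reads in a median of 22.2% of cells. In the range of 200 to 1000 CPM, which holds Krt8, 55.1% met it and the median gene had reads in 47% of cells. By comparison Inha, an inhibin subunit of granulosa cells, needed 47 cells for that share of its CPM and had reads in 177 of 185, and Foxl2, a granulosa transcription factor, needed 24 cells and had reads in 148.

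**Figure D2:**
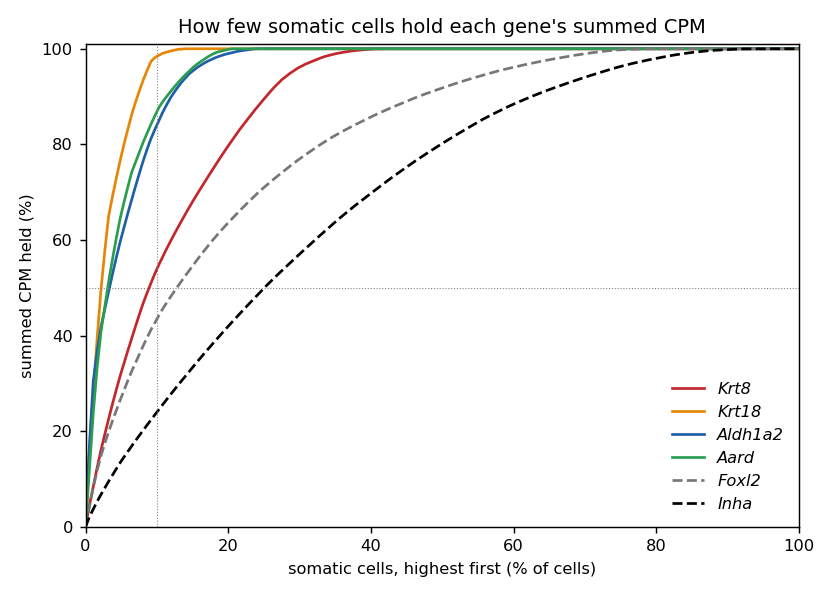
Each line follows the share of a gene's summed CPM (y axis, percent) held by the somatic cells with the highest levels (x axis, percent of 185 cells). Dotted lines mark 50% of the CPM and 10% of cells. Krt18, Aard and Aldh1a2 reach 50% within 5% of cells, Krt8 at 9.19%, Foxl2 at 13% and Inha at 25.4%.

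Of the 6 genes listed on all plates, Krt8 had the highest pooled somatic level per length of transcript. It stood at 219 CPM per kb (95% Poisson interval 212 to 226), followed by Aldh1a2 at 78.7 (74.7 to 82.9), Krt18 at 72.9 (68.1 to 78.0), Aard at 45.1 (41.2 to 49.3), Krt19 at 1.27 (0.768 to 1.99) and Upk3b at 0.388 (0.194 to 0.694). The intervals of Aldh1a2 and Krt18 overlapped, and those of the other neighbours in this order did not. The spread between cells is not part of these intervals. On plate 3, the only one to list Lhx9, Aard stood at 129 CPM per kb (113 to 147) and Krt8 at 82.8 (72 to 94.7). Of the 229 Aard counts on this plate, 154 came from 1 cell, so its place above Krt8 rests on that cell. Krt18 followed at 22.8 (16.5 to 30.7), then Lhx9 at 13.4 (11.4 to 15.6) and Aldh1a2 at 8.08 (5.17 to 12). The intervals of the last pair overlapped. The place of Lhx9 depends on the length used, 9494 bases of joined exons from 7 transcripts. In CPM on this plate Lhx9 stood at 127.2, above Krt18 at 32.76 and Aldh1a2 at 18.28, and below Aard at 174.5 and Krt8 at 162.1. In oocytes with plates pooled Aldh1a2 stood at 32.8 CPM per kb (30.0 to 35.9) and Krt8 at 13.8 (11.8 to 15.9), but Krt8 was above Aldh1a2 on plate 2 (18.5 against 10.7) and on plate 6 (50.4 against 27.9).

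Krt8, the type II keratin, was present in overlapping pooled shares of both cell types before depth was matched, but at unlike levels. Reads were found in 41.6% of somatic cells (exact binomial interval 34.4% to 49.1%) and in 44.1% of oocytes (31.2% to 57.6%). The somatic cells with reads ran from 13.7 to 3385 CPM with a median of 882, and the oocytes with reads from 3.11 to 646 with a median of 42.2. When each cell was thinned to 12000 counts, leaving out 18 somatic cells and 4 oocytes with fewer, the shares were 40.6% and 23.1%. After thinning, the somatic share was above the oocyte share on each of the 5 plates with both types, at 32.8% against 1.72% on plate 1, 45.3% against 29.3% on plate 2, 43.5% against 14.4% on plate 4, 44.5% against 29.7% on plate 5 and 63% against 40.1% on plate 6. The somatic share by stage was lowest in transitioning follicles (27.7%) and highest in secondary follicles (57.1%), with 37.5% for primordial and 44.6% for primary follicles. In the order primordial, transitioning, primary, secondary, the level of the summed counts was 269.6 (241.7 to 299.8), 289.8 (271.2 to 309.3), 639 (609 to 670.1) and 503 (461 to 549) CPM. The primordial and transitioning intervals overlapped, and the primary level was above all others. Plates were not spread evenly over stages, so these pooled values carry plate as well as stage. Of the somatic cells with Krt8 reads, 19 had a count that was not whole. A processed pseudogene, Krt8-ps, on chromosome 7 from 23357125 to 23358069 matched the Krt8 transcript at 98.6% identity over 941 of its 945 bases, and the lincRNA Gm36026 spans 271 exonic bases of Krt8 on the opposite strand, so some Krt8 reads cannot be assigned with certainty.

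Krt18, a type I partner of Krt8, was found in fewer cells. Reads were present in 14.1% of somatic cells (9.39% to 19.9%) and in 6.78% of oocytes (1.88% to 16.5%). In oocytes, 26 counts lay in 3 of the 26 cells with reads of Foxl2, Inha or Amh. Only 1 count lay in the 33 cells without such reads. By stage 2 of 40 primordial, 7 of 47 transitioning, 4 of 56 primary and 13 of 42 secondary somatic cells had reads. The share of 31% in secondary follicles (17.6% to 47.1%) lay above the interval of the primordial stage (0.611% to 16.9%) and of the primary stage (1.98% to 17.3%). Of the 13 secondary cells with reads, 10 were among the 26 secondary cells of plate 5, 2 among the 5 of plate 1 and 1 among the 11 of plate 6. On plate 5 only 1 of 21 primordial and 1 of 19 primary cells had reads. The highest cells were a primordial cell at 2705 CPM (79 counts), a transitioning cell at 2006 CPM (183 counts) and a secondary cell at 1880 CPM (108 counts). Together the 5 highest cells held 57.7% of the summed CPM.

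Krt8 and Krt18 shared some but not all of their cells. Both had reads in 15 somatic cells, which is 57.7% of the 26 cells with Krt18 and 19.5% of the 77 cells with Krt8. Krt8 reads were present in 62 of the 159 somatic cells without Krt18 (39%). Within plate and stage the Pearson correlation of log2(CPM + 1) of the 2 genes was 0.16 over 185 cells, and the correlation of Krt18 with the log2 of the total was 0.19. In oocytes no cell had reads of both, of 26 with Krt8 and 4 with Krt18.

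Krt19, the other type I partner, lies on chromosome 11 from 100140810 to 100148665, minus strand, and had few reads. It had 19 counts in 5 somatic cells, all of secondary follicles on plate 5, with 12 counts in 1 cell and 1 to 3 counts in the others. Somatic cells of the earlier stages had no read, and 7 counts were found in 1 primary oocyte of plate 6. Of the 5 somatic cells with Krt19 reads, 2 had Krt8 reads, 1 had Krt18 reads and 4 had reads of Col1a2, a collagen of stroma. All 5 also had reads of the granulosa genes Inha and Amh, and 4 had Foxl2 reads.

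Across a list of 20 keratins, Krt8 and Krt18 were the only 2 with reads in at least 10% of the somatic cells of the plates that list them. Of the 20, 12 had reads in 5 or fewer somatic cells, and 3 of these, Krt2, Krt13 and Krt16, in none. Krt20 had reads in 11 of 185 somatic cells, and Krt7, a simple keratin of many surface and duct epithelia, in 11 of 153. Krt12, known from the cornea, had reads in 2 somatic cells and in 18 of 59 oocytes (27.4 CPM). Of 13 other filament and junction genes, 10 had reads in at least 10% of somatic cells, and 10 had reads in a larger share of oocytes than of somatic cells. Only 5 of the 13 had a higher CPM in oocytes. These shares were not matched for depth, which was greater in oocytes. Among genes with a lower CPM in oocytes, 39.1% had reads in a larger share of oocytes. Vim, the filament protein of mesenchymal and granulosa cells, had reads in 12 of 12 somatic cells on its 1 plate at 3621 CPM. Plec, which links keratin filaments to other structures, had reads in 19 of 37 somatic cells and 12 of 13 oocytes. Dsg2, a desmosomal cadherin, had reads in 41 of 185 somatic cells and 4 of 59 oocytes.

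Upk3b, the mesothelial marker, lies on chromosome 5 from 136038496 to 136046487, plus strand. It had 11 counts in 3 somatic cells (1.62%, interval 0.336% to 4.67%) and none in oocytes, where 0 of 59 allows a share of up to 5.08% by 3 cells of 59 (exact binomial upper limit 6.06%). Of these counts 9 came from 1 primordial cell of plate 1, and the other 2 cells had 1 count each. The cell with 9 counts also had 95 counts of Aldh1a2, 404 of Col1a2 and 259 of Dcn, a proteoglycan of stroma, 7 of Inha and none of Foxl2, Krt8 or Krt18. Of the other uroplakins, Upk1b and Upk2 had no reads in 185 somatic cells, Upk3a had reads in 3 and Upk1a in 4. Upk1a had reads in 26 of 59 oocytes at 13.3 CPM.

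The labels name no surface epithelial cells, and markers of that layer ranged from absent to common in the somatic cells. On a list of 19 markers that includes 6 of the 7 genes, 9 had reads in at least 10% of somatic cells. Another count, of genes with reads in 5 or fewer cells, gave 6, and 1 of these had none. Lhx9, with reads in 4 of 22 cells, is among both the 9 and the 6. Of the mesothelial markers, Msln had reads in 3 of 185 cells, Muc16 in 8, Lrrn4 in 2 and Gpm6a in 6. Lgr5 had reads in 9, Cldn1 in 14, Bnc1 in 19 and Epcam in 25 of 185 somatic cells. Several were common in oocytes, since Lrrn4 had reads in 34, Gpm6a in 35, Bnc1 in 53 and Epcam in 50 of 59 oocytes. Lgals7 was found in 40 of the 131 somatic cells on its plates, Aldh1a1 in 132 of 151 and Cdh1 in 7 of 66. Cdh1 also had reads in 10 of 10 oocytes. These 3 genes are not listed on every plate and are outside the sum that follows. The summed level of the 14 markers listed on every plate ran from 0 to 9167 CPM in somatic cells of primordial follicles and from 0 to 4541 CPM in those of secondary follicles. In oocytes it ran from 216.5 to 7358 CPM over the stages.

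Aldh1a2 was carried by a smaller share of somatic cells than of oocytes, at higher levels in the somatic cells that had it. Reads were present in 45 of 185 somatic cells (24.3%, interval 18.3% to 31.2%) and in 43 of 59 oocytes (72.9%, 59.7% to 83.6%), at median totals of 29205 and 46686 counts. The somatic cells with reads ran from 8.75 to 6718 CPM with a median of 488, and the oocytes with reads from 2.25 to 1083 with a median of 54.2. Over all cells the level was 178 CPM in somatic cells (169 to 187.7) and 74.3 in oocytes (67.9 to 81.2). After thinning to 12000 counts the shares were 20.7% of 167 somatic cells and 43.7% of 55 oocytes. Of 3547 genes with a lower CPM in oocytes than in somatic cells, 39.1% had reads in a larger share of oocytes, and 22.7% did after thinning.

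**Figure D3:**
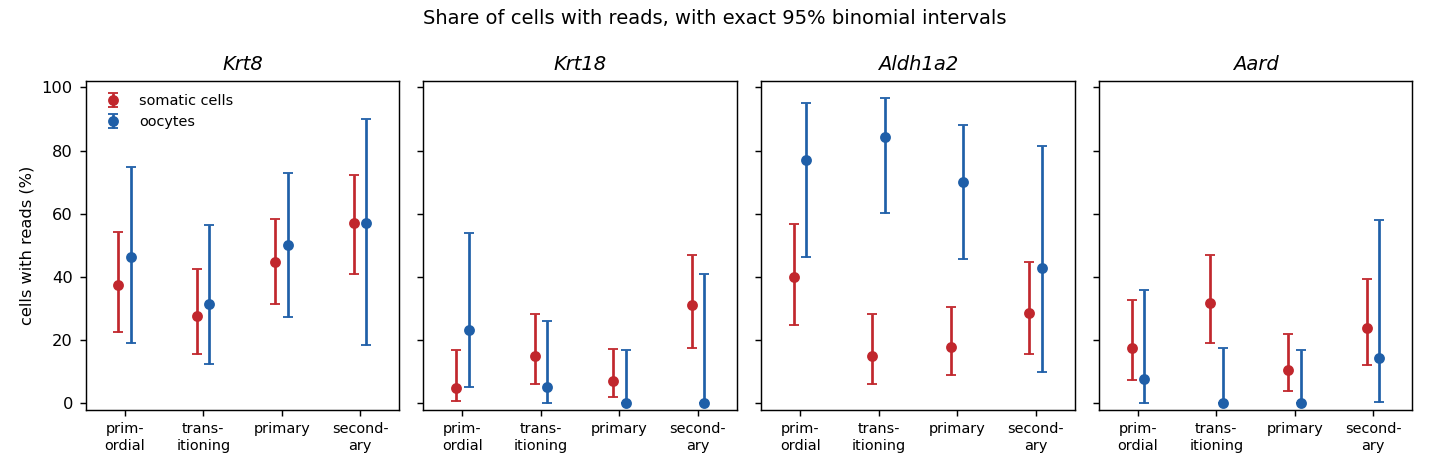
Share of cells with reads (y axis, percent) of Krt8, Krt18, Aldh1a2 and Aard by follicle stage, with exact 95% binomial intervals. Red circles are somatic cells and blue circles are oocytes. Aldh1a2 stands higher in oocytes at every stage, from 76.9% against 40% in primordial to 42.9% against 28.6% in secondary follicles, but the intervals overlap at these 2 stages and are apart for the transitioning and primary stages only.

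The higher share of Aldh1a2 in oocytes was present on each of the 5 plates that held at least 5 cells of both types. Reads were found in 9 of 13 oocytes and 7 of 37 somatic cells on plate 1, in 7 of 8 and 6 of 32 on plate 2, in 13 of 15 and 4 of 16 on plate 4, in 6 of 10 and 25 of 66 on plate 5, and in 8 of 13 and 1 of 12 on plate 6. Of the genes with a lower CPM in oocytes, 12.6% had the larger share in oocytes on each of these plates. After thinning the share was 67% against 14.7% on plate 1, 24.5% against 18.6% on plate 2, 49.2% against 24.8% on plate 4, 30.4% against 32.4% on plate 5 and 42% against 5.59% on plate 6, so plate 5 no longer showed it. Plates 5 and 6 are those where all oocytes and somatic cells carry the same second plate code in the metadata. On plates 1, 2 and 4 this code is shared by only 3 of 13, 1 of 8 and 5 of 15 oocytes. Reads of Aldh1a2 were as common in oocytes with no read of Foxl2, Inha or Amh (24 of 33, 72.7%) as in the others (19 of 26, 73.1%), with 66.9 and 82.2 CPM. The highest oocytes were mixed in this respect. Primordial oocytes with 61, 59, 55 and 32 counts of Aldh1a2 had 34, 35, 85 and 40 counts of Inha. A transitioning oocyte with 87 counts and a primary oocyte with 9 had no Inha read. The source of the Aldh1a2 reads in oocytes was not tested. The processed pseudogene Gm48124 lies within Aldh1a2 on the opposite strand and overlaps 0 bases of its exons.

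**Figure D4:**
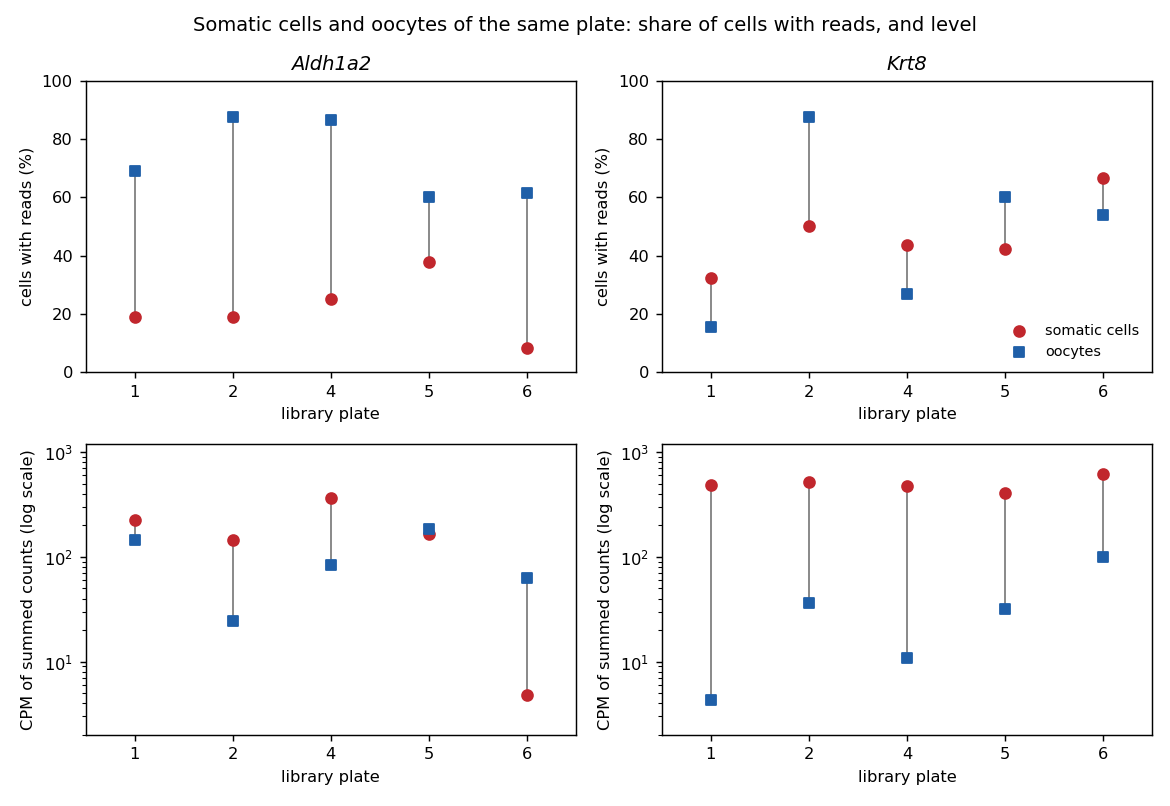
The upper panels give the share of cells with reads (percent) and the lower panels the CPM of summed counts on a log axis, for Aldh1a2 (left) and Krt8 (right) on the 5 plates with at least 5 somatic cells and 5 oocytes. Red circles are somatic cells and blue squares are oocytes of the same plate. Krt8 is higher in somatic cells in CPM on all 5 plates, from 411 to 620.4 against 4.29 to 98.7, while the Aldh1a2 share is higher in oocytes on all 5.

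With plates pooled, the Aldh1a2 level of oocytes was 95.99 CPM (84.8 to 108.2) for primordial follicles and 71.3 (60.9 to 83.1) in transitioning ones. It was 41.2 (30.8 to 54.02) for primary and 25 (9.18 to 54.4) for secondary oocytes, whose intervals overlapped. This order was not kept on single plates, since 7 of the 13 primordial oocytes were on plate 2 at 26.28 CPM (20.11 to 33.76), while 15 transitioning oocytes on plate 4 stood at 83.2 CPM and 8 primary oocytes on plate 6 at 74.84 CPM. Stage and plate cannot be told apart in the pooled values. One primordial oocyte of plate 5 held 43.1% of the primordial single-cell CPM, at 1083 CPM (61 counts), and it also carried 34 counts of Inha, 8 of Krt18 and 143 of the oocyte gene Ooep. On plate 1, where 5 primordial and 7 primary oocytes can be set side by side, the level was 351.8 CPM in primordial and 53.6 CPM in primary oocytes, with reads in 3 of 5 and 5 of 7 cells. The 3 primordial oocytes with reads also had 35, 85 and 40 counts of Inha. The primary value rests on the deepest oocyte, and without it was 205.5 CPM, an alternative added after the data were seen. The mean of single cells there was 248.8 ± 245.5 CPM (SD, n = 5 cells) and 134.6 ± 177.3 CPM (SD, n = 7 cells), a difference within the spread between cells. In somatic cells 16 of 40 primordial, 7 of 47 transitioning, 10 of 56 primary and 12 of 42 secondary cells had reads. Single cells dominated the somatic levels, since 1 cell held 60.4% of the transitioning CPM (282 counts), 1 cell 51.7% of the secondary and 1 cell 40% of the primordial.

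Of the enzymes that make retinoic acid, Aldh1a1 was found in far more somatic cells than Aldh1a2. It had reads in 132 of 151 somatic cells on the 4 plates that list it, at 3992 CPM, and in 11 of 46 oocytes at 34.2 CPM. Aldh1a3 had reads in 9 of 153 somatic cells. Of 22 genes of retinoid handling, 9 had reads in at least 10% of somatic cells and 10 in 5 or fewer cells. Rxrb, with reads in 4 of 12 cells, is among both. Stra6, the retinol receptor, had reads in 82 of 151 somatic cells. Crabp1, which binds retinoic acid, had reads in 31 of 59 oocytes (156 CPM) and 13 of 185 somatic cells. Cyp26a1 and Cyp26c1, which degrade retinoic acid, had no reads in somatic cells, and Cyp26b1 had reads in 6.

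Aard, on the plus strand of chromosome 15 from 52040107 to 52045722, had reads in 38 of 185 somatic cells (20.5%, interval 15% to 27.1%) and in 2 of 59 oocytes (3.39%, 0.413% to 11.7%). The oocytes held 3 counts in all, each in a cell that also had reads of Foxl2, Inha or Amh. The pooled somatic level was 112.6 CPM (101.1 to 125) in transitioning follicles, of which 1 cell held 154 of 350 counts, and 65.98 CPM without that cell, an alternative added after the data were seen. It was 57.8 (45.3 to 72.7) in primordial ones. Primary cells stood at 15.9 CPM (11.46 to 21.5) and secondary cells at 23.5 (15.03 to 34.9), with overlapping intervals. The transitioning cells came from several plates, with reads in 8 of 22 cells on plate 3, 6 of 16 on plate 4, 0 of 8 on plate 1 and the single cell of plate 6. The highest cells were a transitioning cell at 1118 CPM (154 counts) and a primordial cell at 1107 CPM (42 counts). The latter held 95.5% of the Aard CPM of the primordial cells of plate 1. On that plate the direction was the other way, with 0 counts in 8 transitioning cells against 45 counts in 19 primordial cells. The log2 ratio was -3.40 with 3 counts standing for 0, and the exact interval ended at -3.04.

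Lhx9, a gonadal transcription factor, lies on chromosome 1 from 138825186 to 138848577, minus strand. It can be read on plate 3 alone, where 4 of 22 transitioning somatic cells had 77, 52, 34 and 4 counts (18.2%, interval 5.19% to 40.3%). The level was 127 CPM (108.7 to 148.1), and 51% of it was held by 1 cell. All 4 cells had reads of Foxl2, Inha and Amh, none had Col1a2 reads, 1 had Krt8 reads and 1 had Aldh1a2 reads. Of 14 gonadal transcription factors on a list that includes Lhx9, 9 had reads in at least 10% of somatic cells and 4 in at least 50%. These 4 were Wt1 (62 of 66 cells), Nr5a1 (119 of 151), Gata4 (50 of 69) and Gata6 (134 of 185), each on the plates that list it. Six4 had reads in 2 of 126 somatic cells and Lhx2 in 1 of 119.

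The somatic cells with reads of Krt8, Krt18 and Aard carried granulosa genes. All 77 cells with Krt8 and all 26 with Krt18 had Inha reads, and 69 and 24 of them had Foxl2 reads. Aard showed 37 of 38 cells with Inha and 36 with Foxl2. These shares stand beside 177 of 185 for Inha and 148 of 185 for Foxl2 in all somatic cells. Col1a2 reads were present in 19.5% of the cells with Krt8, 23.1% of those with Krt18, 21.1% of those with Aard and 22.7% of all somatic cells. Cells with Aldh1a2 had Inha in 43 of 45 (95.6%), Foxl2 in 36 of 45 (80%, as over all somatic cells) and Col1a2 in 17 of 45 (37.8%). Of the 9 cells with the highest Aldh1a2 level, 3 had no Foxl2 read, and 1 of these, a primary cell with 65 counts of Aldh1a2, had 1130 counts of Col1a2 and none of Inha. The summed level of 7 granulosa markers listed on every plate ran from 0 to 41956 CPM in primordial and from 11203 to 123879 CPM in secondary somatic cells, and that of 6 stroma markers from 0 to 89898 CPM. Their part in the levels above was not tested. Ooep reads were present in 86 of 185 somatic cells, at 409.8 CPM against 17079 in oocytes.

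**Figure D5:**
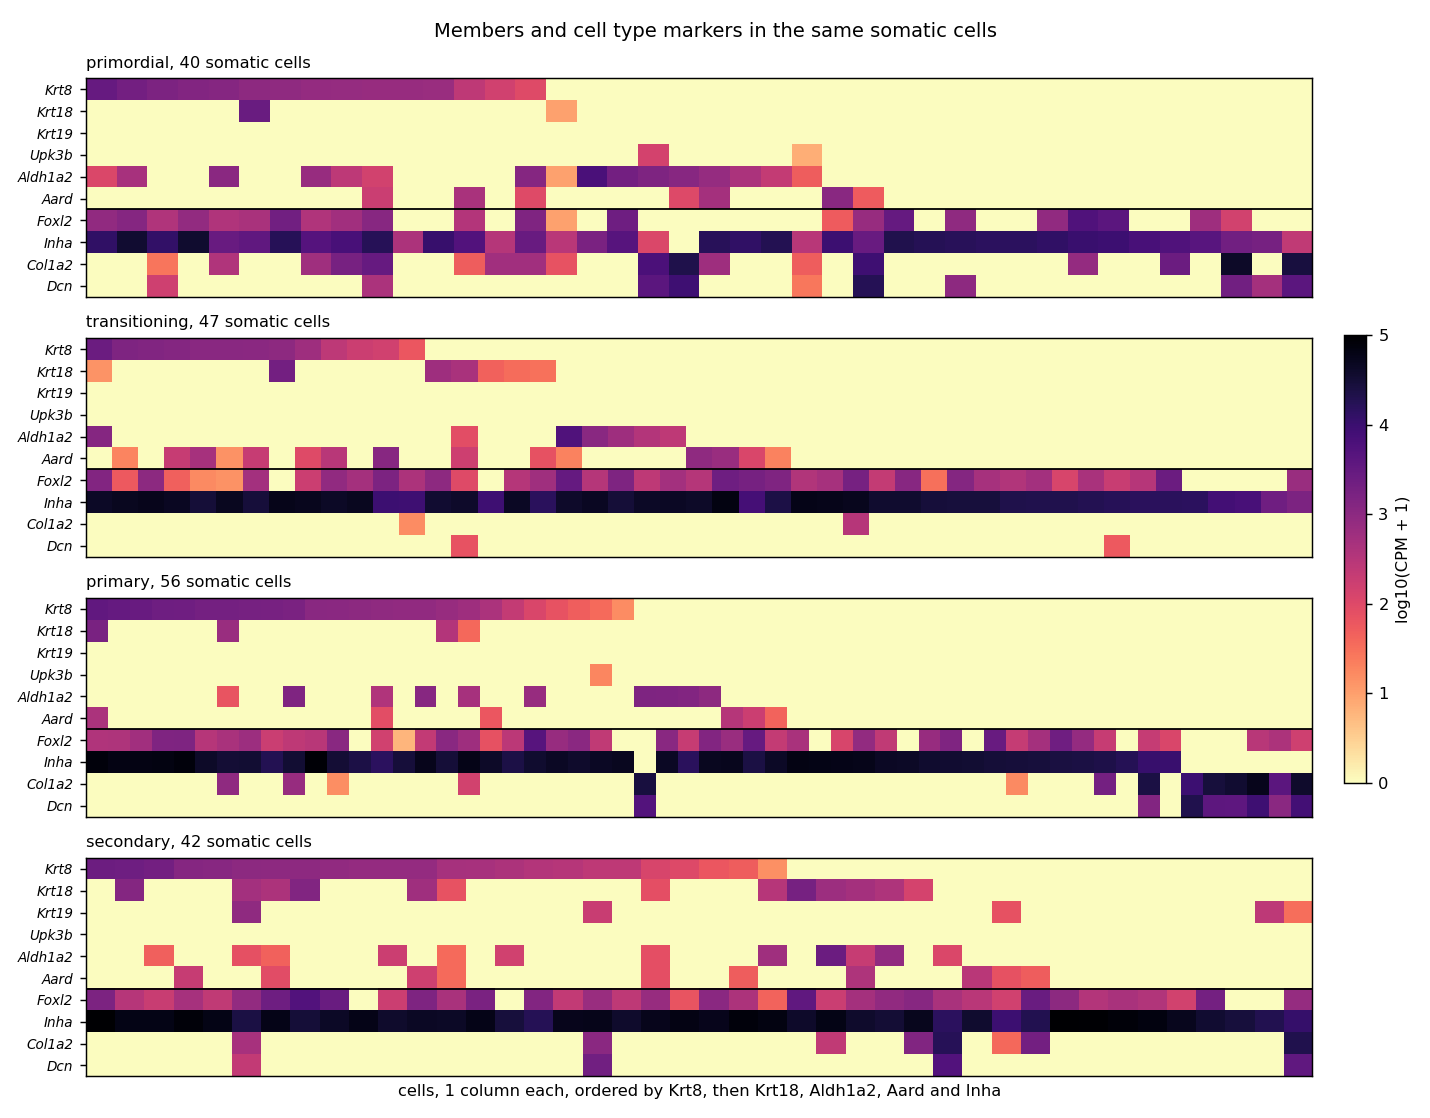
Each column is 1 somatic cell and each row 1 gene, in 4 blocks by follicle stage, with colour giving log10(CPM + 1). Above the line are 6 of the 7 genes and below it markers of granulosa cells (Foxl2, Inha) and stroma (Col1a2, Dcn). Cells with Krt8 all carry Inha, the 5 cells with Krt19 are all secondary, and 15 cells carry both Krt8 and Krt18.

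Somatic cells were compared with oocytes inside the 5 plates that hold at least 5 of both. A gene was compared where 1 group had more than 3 counts and at least 5 CPM, and a log2 ratio of at least 1 counted as higher. Of 30 pairs of gene and plate, with Lhx9 on none of these plates, 22 could be compared, and 17 were higher in somatic cells, 1 was lower and 4 were neither. The background was large, since 49.6%, 65.1%, 56.6%, 46% and 51.7% of all genes compared were higher in somatic cells on plates 1, 2, 4, 5 and 6, and 25.2%, 20.9%, 26.3%, 18.4% and 20.4% were lower. The median log2 ratio over all genes was 0.96, 2.63, 1.69, 0.76 and 1.13 on these plates, and that of the members 3.81, 3.66, 5.53, 2.48 and 2.65. Relative to the median of all genes, 14 pairs were higher and 2 lower. Apart from Krt18, the genes compared belonged to the somatic score by which the authors removed oocytes. Their oocyte levels are limited by that selection, which does not hold for most genes of the background.

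Krt8 was higher in somatic cells on all 5 plates. Its log2 ratio was 6.83 (interval 5.60 to 8.46) on plate 1, 3.83 (3.54 to 4.16) on plate 2, 5.47 (4.84 to 6.17) on plate 4, 3.68 (2.85 to 4.62) on plate 5 and 2.65 (2.15 to 3.20) on plate 6. Without the highest cell of each group the ratio stayed between 3.18 and 8.53. Krt18 was also higher on all 5 plates, but the oocyte counts were 11, 7, 1, 8 and 0, and on plates 2 and 6 the somatic counts came from 2 cells and 1 cell. On plate 2 the ratio of Krt18 was 3.66 for summed counts and 0.53 for the mean CPM of single cells. Aard was 14.1-fold higher in somatic cells on plate 1, 48.2-fold on plate 4 and 13.7-fold on plate 6, where oocytes had no count and 3 counts per group stand for 0. The exact intervals began at log2 ratios of 3.46, 5.27 and 3.34. Without the highest somatic cell the ratios against 3 counts fell to 1.47, 5.15 and 2.18 on the log2 scale. The reason is that 1 cell held 42 of 52 counts on plate 1 and 1 cell 14 of 20 on plate 6. On plate 5 the Aard ratio was 2.48 (0.88 to 4.79) against 3 oocyte counts, and plate 2 had too few counts.

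Aldh1a2 had no uniform direction in CPM. Somatic cells were higher on plate 2 (144.4 against 24.2 CPM, log2 ratio 2.58, interval 2.19 to 2.98) and plate 4 (364.5 against 83.2 CPM, 2.13, 1.87 to 2.40). The ratio was 0.64 (0.37 to 0.91) on plate 1 and -0.16 (-0.55 to 0.25) on plate 5. On plate 6 oocytes were higher, with 1 somatic count against 27 oocyte counts (-3.71, -9.07 to -1.11). Relative to the median of all genes the ratio was -0.06 on plate 2 and 0.44 on plate 4. The value of plate 5 rested on the single primordial oocyte named above, which held 85.3% of the single-cell CPM there, and without the highest cell of each group it was 2.64. On plate 1 Upk3b was 2.43-fold higher in somatic cells with 3 counts standing for 0, from 9 counts of 1 cell against 0. The exact interval began at a log2 ratio of 0.68. Krt19 was neither higher nor lower, with 19 somatic counts against 0 on plate 5 and 0 against 7 on plate 6.

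Somatic stages were compared inside plates 1 and 5, the only plates with at least 5 somatic cells of more than 1 stage. Over 5 comparisons of a stage with the one before it on the plate, 22 of 30 pairs could be compared, of which 8 were higher and 8 lower in the later stage and 6 were neither. Of all genes, 27% were higher and 44.5% lower in transitioning than in primordial cells of plate 1, 47.2% and 25.5% in primary than in transitioning cells, and 30.9% and 29% in secondary than in primary cells. On plate 5, 44.1% were higher and 18.6% lower in primary than in primordial cells, and 25.6% and 21.7% in secondary than in primary cells. Of the members compared, 0 of 5 were higher and 5 lower in the first of these comparisons, 3 of 4 higher and 0 lower in the second, and 1 higher and 1 lower of 4 in the third. On plate 5 the counts were 3 higher and 0 lower of 4, and 1 higher and 2 lower of 5.

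On plate 1 Krt8 reads were present in 4 of 19 primordial cells (163 CPM), 0 of 8 transitioning cells, 4 of 5 primary cells (1292 CPM) and 4 of 5 secondary cells (779.9 CPM). With 3 counts standing for 0, the primary level was 148-fold that of the transitioning cells, from 381 counts against 0. The exact interval began at a log2 ratio of 6.91. A single primary cell held 173 of the 381 counts. Stages follow the titles, and 2 somatic cells of plate 1 had another stage in the metadata. Transitioning cells of other plates did have Krt8 reads, in 6 of 22 on plate 3 and 7 of 16 on plate 4. On plate 5 the Krt8 level was 337 CPM for primordial cells, with reads in 11 of 21, 825 for primary cells, with reads in 5 of 19, and 277 for secondary cells, with reads in 12 of 26. The primary value was 2.45-fold the primordial one by summed counts (log2 ratio 1.29, interval 1.04 to 1.55), yet the mean CPM of single cells was 556.7 ± 1123 (SD, n = 19 cells) for primary and 566 ± 827 (SD, n = 21 cells) for primordial cells, a log2 difference of -0.02.

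Krt18 on plate 5 stood at 238.4 CPM in primary cells and 356.5 CPM in secondary cells, against 1 count in the primordial cells. All 74 counts of the primary stage came from 1 cell, so that without the highest cell of each group the secondary cells were higher by 3.92 on the log2 scale in place of 0.58. On plate 1 the Krt18 level was 161 CPM in 1 of 19 primordial cells, 91.5 CPM in 1 of 5 primary cells and 325 CPM in 2 of 5 secondary cells. With the highest cell of each group left out, 13 of the 22 pairs could still be compared, 3 were higher and 4 lower. The 3 were Krt8 in primary against transitioning cells of plate 1, and Krt18 in secondary against primary cells of both plates. Without its highest secondary cell alone, however, the Krt18 ratio was 0.04 on plate 1 and -0.49 on plate 5.

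The genes most like each member were sought among genes listed on every plate with reads in at least 20% of somatic cells, by the Pearson correlation of log2(CPM + 1) after the mean of each plate and stage was removed, over 185 cells. They were Mgst3, Emilin2, Chmp5, BC031181 and Mut for Krt8 (0.34 to 0.29) and Sdsl, RP24-394C15.7, Smpdl3b, Rprd1a and Tmem35 for Krt18 (0.30 to 0.28). For Aldh1a2 they were Sart1, Ubtd2, Rtl6, Cd276 and Armc1 (0.27 to 0.23), and for Aard Nubp2, Pomk, Gramd3, Osbpl11 and Dnajc18 (0.38 to 0.25). All are weak, the points share depth, and the highest of some 1380 genes is given, so they serve as a description only. Krt8 stood at 0.24 with Inha, 0.18 with Amh and -0.18 with Col1a2, and Aldh1a2 at 0.02 with Krt8 and 0.09 with Col1a2. Krt19, Upk3b and Lhx9 had reads in too few cells.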

How the data were processed

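Single cells were sequenced by SMART-Seq2, and per the labels and the study's methods reads were aligned to GRCm38 and analysed in Seurat 4. The aligner and counter are not given in the sources used here. The authors removed cells with few genes, oocytes with a high score of somatic genes and somatic cells with a high score of oocyte genes, and kept protein-coding genes. The deposited table holds estimated counts per gene and cell, not normalized by the authors. A gene is missing on some plates, and was read only on plates that list it. Of 25149 rows, 27 with dates for names (0.0743% of counts) were left out.

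Counts were summed per cell group and divided by the summed counts of 13266 genes listed on every plate. Intervals are exact (Poisson, binomial, and the binomial split of 2 sums) at 95%. With 1 sample per group no test between groups was run, and a group at 0 was set to 3 counts. Thinning used 12000 counts and the expected share of cells with reads. Correlations used a pseudocount of 1. Stages follow the titles, and 2 somatic cells of plate 1 had another stage in the metadata. All 7 members were named, with the 5 genes most like each of the 4 with reads in enough cells. Other genes are those at the head of their lists or markers of a cell type. The members and lists were chosen with earlier results of these data known. Alternatives used edgeR 4.0.16 (TMM) and DESeq2 1.42.0 (median of ratios) for scaling factors only, after the estimated counts were rounded. Sums were computed in Python 3.11.15 and tested on simulated data, and the Krt8 pseudogene was aligned with blastn 2.17.0.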

Additional observations from a re-analysis of the deposited data

Results flagged for a closer look

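Among the 7 secondary oocytes, the only group of 4 to 10 cells, the gap of the highest cell to the next was divided by the range and set against Dixon's limit for the 3 genes with any spread. Cells are not replicates, so this describes single cells only. The Krt8 level of replicate 7 was 646 CPM (22.7 counts, plate 6), far above the next secondary oocyte at 55.9 CPM, and this cell held 83.6% of the single-cell CPM of its stage. The Aard level of replicate 1 was 28 CPM, which is 1 count, with the 6 other cells at 0, which fixes the ratio at its maximum and shows no more than 1 read. The limit marks about 1 in 20 groups by chance where values are normally distributed, which sparse counts with many zeros are not. Here it marked 2 of 3 groups.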

How the results depend on the processing

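No paired analysis was possible because replicate numbers in the titles only name cells and no comparison between groups comes from a test. The count of 17 pairs higher in somatic cells than in oocytes ranged from 14 to 17 over 6 alternatives. The count of lower pairs, 1, was 2 with TMM and 2 with median-of-ratios factors. Between somatic stages, the 8 higher pairs became 5 with all counts as total, 5 with TMM, 5 with median-of-ratios factors and 3 without the highest cell of each group. The 8 lower pairs became 5 with the mean CPM of single cells and 4 without the highest cells. With that mean, 3 ratios changed sign, Upk3b in transitioning against primordial cells of plate 1 (0.25), and Aard (-0.38) and Krt8 (-0.02) in primary against primordial cells of plate 5. The 7 members carried by few cells became 3 on plate 2, 2 on plate 4 and 2 on plate 6 alone, where 4, 4 and 3 members could be read. The 5 members with reads in at least 10% of somatic cells became 4 with a minimum of 5 counts. Chosen after seeing the data, plates 5 and 6 alone gave Aldh1a2 reads in 60.9% of oocytes and 33.3% of somatic cells, and 36.9% and 28.2% after thinning. The cause of these changes was not tested. Depth limits the shares, since 1 count is 34.2 CPM in the median somatic cell.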
